A study of Papio with 24 samples.

Results

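Progenitor cells of subcutaneous abdominal fat, the fat layer under the skin of the belly, were compared between baboon fetuses of restricted and of freely fed mothers. The arrays were chosen by their titles, which name the depot and the diet, and they made up 8 of the 24 arrays of the series. The 4 control fetuses (control_9017, control_9087, control_8011 and control_8009) had mothers fed without limit. The 4 restricted fetuses (restricted_9085, restricted_2820, restricted_9075 and restricted_9073) had mothers on a diet cut by 30% for the whole of pregnancy. Fat was collected at day 165 of a gestation of 184 days, and each diet held 1 male fetus (control_9017 and restricted_9085) and 3 females. The labels give no genetic change and no treatment of the cells. Omental fat, inside the abdomen, and femoral fat, under the skin of the thigh, of the same 8 fetuses gave the other 16 arrays.

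Adipose-derived stem cells are the stromal cells of fat that stick to plastic, divide and can be driven to form fat cells, bone or cartilage. Fat cell formation runs through the transcription factors PPARG and CEBPA, and signals such as Wnt proteins hold it back. Progenitors of different depots keep position marks, among them HOX and IRX genes under the skin and regulators of gut and body-cavity mesoderm in deep fat. Poor maternal nutrition is known to alter fetal fat growth, and the series title asks whether such effects depend on the depot.

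What the arrays measured were cells, not tissue. Per the labels' protocols, cells were freed with collagenase, grown to confluence in serum, frozen, thawed, grown again and pooled from triplicate wells, so each array stands for 1 fetus and 1 pool. The probes were designed for human transcripts and read baboon RNA. Fewer cells of a type and less RNA per cell cannot be told apart in such pools. Of 17 surface markers of these stem cells, 14 had a probe that passed the detection filter and 11 were detected on all 8 arrays, among them CD44, NT5E, ENG and PDGFRB. For THY1, VCAM1 and CD63 no probe carrying their name passed the filter. ADIPOQ, PLIN1 and LPL, which mature fat cells make in large amounts, did not pass the filter, and FABP4 was detected on 1 control and 3 restricted arrays.

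Each abdominal array detected 13447 to 14600 of 48803 probes, and 16933 probes were tested. Limma's test of diet called 0 of these 16933 probes (0.0%) at an adjusted p under 0.05. At an unadjusted p under 0.05 there were 824 probes (4.87%), 349 of them higher (2.06%) and 475 lower (2.81%) in restricted fetuses. On 531 probes (3.14%) the 4 arrays of one diet lay wholly above the 4 of the other, 232 with restricted higher (1.37%) and 299 with restricted lower (1.77%). A difference over 1 on the log2 scale, which is over 2-fold, was seen on 112 probes (0.661%), and 17 of those (0.1%) also had no overlap. Every difference below is therefore a difference between array means that did not pass the adjusted test, and words such as higher and lower describe those means.

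Some arrays stood apart from the rest of this depot, and they bear on many values below. The array of restricted_2820 had 96 genes more than 1 log2 unit above all 7 other arrays and 44 genes more than 1 below them. Restricted_9073 had 24 above and 9 below, and control_8009 had 21 above and 9 below. The other 5 arrays had 3 to 10 above and 1 to 16 below. Another measure was the root mean square distance over all genes from the mean of the other 3 arrays of the same diet. It was 0.52 for restricted_2820 and 0.43 for restricted_9073. For control_8009 it was 0.36, below the 0.38 of control_9017, 0.39 of restricted_9075 and 0.42 of restricted_9085.

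A few of the genes on which these arrays departed are named here, and they were picked after their values were seen. On control_8009, the embryonic muscle myosin MYH3 had a log2 level of 10.06 against 4.31 to 4.45 on the other 7 arrays, and the muscle genes CDH15 (8.78), MYBPH (8.10) and CHRNA1 (8.33) and the hindlimb factor PITX1 (9.07) were highest there too. Of 14 skeletal muscle markers, 9 passed the filter and their mean level ran from 5.36 to 7.27 on control arrays and from 5.46 to 5.92 on restricted arrays. MYOD1 and MYOG, which start the muscle programme, did not pass the filter. On restricted_9073, NKX3-2, a homeobox gene of gut mesoderm, stood at 9.55 against 4.39 to 4.88 elsewhere, with SLN at 11.33, ALDH1A1 at 8.27 and ISL1 at 6.42. TNNT1, a member of the skeletal muscle list, was also above all 7 other arrays on restricted_9073. On restricted_2820, the chemokines CXCL8 (13.96) and CCL20 (10.38) and the cortisol-activating enzyme HSD11B1 (9.38) were highest of the 8 arrays, while IRX3 (9.14) was lowest.

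**Figure D1:**
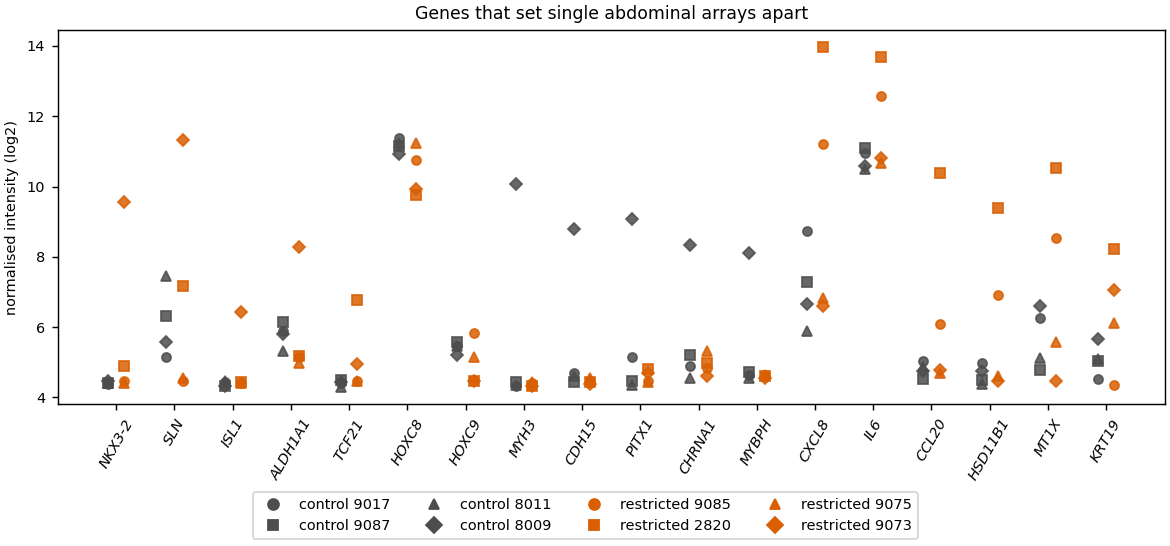
Normalised log2 intensity of 18 genes on each of the 8 abdominal arrays, with control arrays in grey, restricted arrays in orange and the marker shape giving the fetus. Control_8009 alone reads MYH3 (10.06) and CDH15 (8.78) high, restricted_9073 alone reads NKX3-2 (9.55) and ISL1 (6.42) high, and restricted_2820 is highest for CXCL8 (13.96) and CCL20 (10.38).

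Secreted proteins were the first group among the genes higher in restricted fetuses. In the values that follow, control arrays are in the order control_9017, control_9087, control_8011 and control_8009, and restricted arrays in the order restricted_9085, restricted_2820, restricted_9075 and restricted_9073. TNFRSF11B, or osteoprotegerin, a secreted decoy receptor for the bone-resorption signal RANKL and for TRAIL, read 9.47, 8.96, 8.93 and 9.23 on control arrays and 10.95, 11.95, 10.85 and 10.22 on restricted arrays. The lowest restricted array thus lay above the highest control array. The difference was 1.84 ± 0.32 (log2, SE; 3.59-fold; limma adjusted p 0.557), and it ran from 1.53 to 2.10 when each fetus was left out in turn. FST, or follistatin, which binds and blocks activins, read 9.42, 10.56, 10.17 and 10.47 in controls and 11.47, 13.53, 11.61 and 10.71 in restricted fetuses. Its groups did not overlap on either of its probes, which differed by 1.67 ± 0.54 and 1.64 ± 0.55 (limma adjusted p 0.955), although restricted_2820 was far above the others and the first probe differed by 1.11 without it. NDNF, a secreted neurotrophic factor, read 8.39, 9.04, 8.04 and 7.07 against 9.97, 9.40, 9.21 and 9.15 (1.30 ± 0.38; limma adjusted p 0.955).

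Receptors and adhesion molecules of the cell surface were the next group. ITGA8, an integrin chain that pairs with ITGB1 and binds nephronectin, read 6.53, 8.02, 7.78 and 6.24 in controls and 8.77, 9.89, 8.84 and 9.45 in restricted fetuses. It had the largest difference of the 12 genes with the smallest p on the higher side, 2.09 ± 0.43 (4.27-fold; limma adjusted p 0.842), with no overlap although the control arrays were spread over more than 1 log2 unit. VSIG1, an immunoglobulin-domain surface protein, read 5.13, 4.46, 4.70 and 4.78 against 5.83, 6.52, 5.59 and 5.48 (1.09 ± 0.23), and was detected on 2 control and 4 restricted arrays. The leucine-rich repeat membrane proteins LRIG3 and SLITRK4 differed by 0.61 ± 0.13 and 0.57 ± 0.10 (limma adjusted p 0.955 and 0.557). KCNMB2, a regulatory subunit of calcium-activated potassium channels, was detected on no control array but on all 4 restricted arrays, a difference of at least 2.14-fold (limma adjusted p 0.955). Its restricted arrays read 5.62, 7.47, 4.92 and 5.45, so that restricted_2820 was again the highest.

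Signalling and survival genes inside the cell came next. RCAN1, which inhibits the calcium-dependent phosphatase calcineurin, read 6.58, 6.76, 6.14 and 6.04 in controls and 8.06, 7.39, 7.58 and 7.31 in restricted fetuses. The difference was 1.20 ± 0.21 (2.30-fold; limma adjusted p 0.557), and a second probe differed by 1.07 ± 0.30, also without overlap. ETV4, an ETS transcription factor that growth factors switch on through the ERK pathway, read 4.84, 5.36, 4.82 and 4.99 against 6.03, 5.60, 5.64 and 5.79, a difference of 0.76 ± 0.15 (limma adjusted p 0.739), and its second probe differed by 0.88 ± 0.18. The groups did not overlap on either probe of RCAN1 or of ETV4. Of 20 tested growth factor response genes, ETV4 among them, 11 were higher and 9 lower (median 0.15), where 46.5% of all genes were higher. TP53BP2, which steers p53 towards death genes, differed by 0.68 ± 0.12 (limma adjusted p 0.557), but its groups overlapped on a second probe, which differed by 0.52 ± 0.23. The survival protein gene BCL2L1 differed by 0.38 ± 0.08 (limma adjusted p 0.955).

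The remaining genes of this group act in the secretory and acid compartments. PGAP4, a Golgi enzyme that modifies lipid anchors of surface proteins, had the smallest p on the higher side and read 6.13, 6.11, 6.23 and 6.28 in controls and 7.09, 7.20, 7.07 and 6.67 in restricted fetuses (0.82 ± 0.12; 1.77-fold; limma adjusted p 0.538). The 4 control arrays lay close together and below every restricted array. ATP6V0B, a subunit of the proton pump of lysosomes, differed by 0.55 ± 0.11 (limma adjusted p 0.739). A second, brighter probe of ATP6V0B differed less, by 0.27 ± 0.07, also without overlap. TVP23C, a relative of a yeast Golgi membrane protein, differed by 0.52 ± 0.10 (limma adjusted p 0.781).

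**Figure D2:**
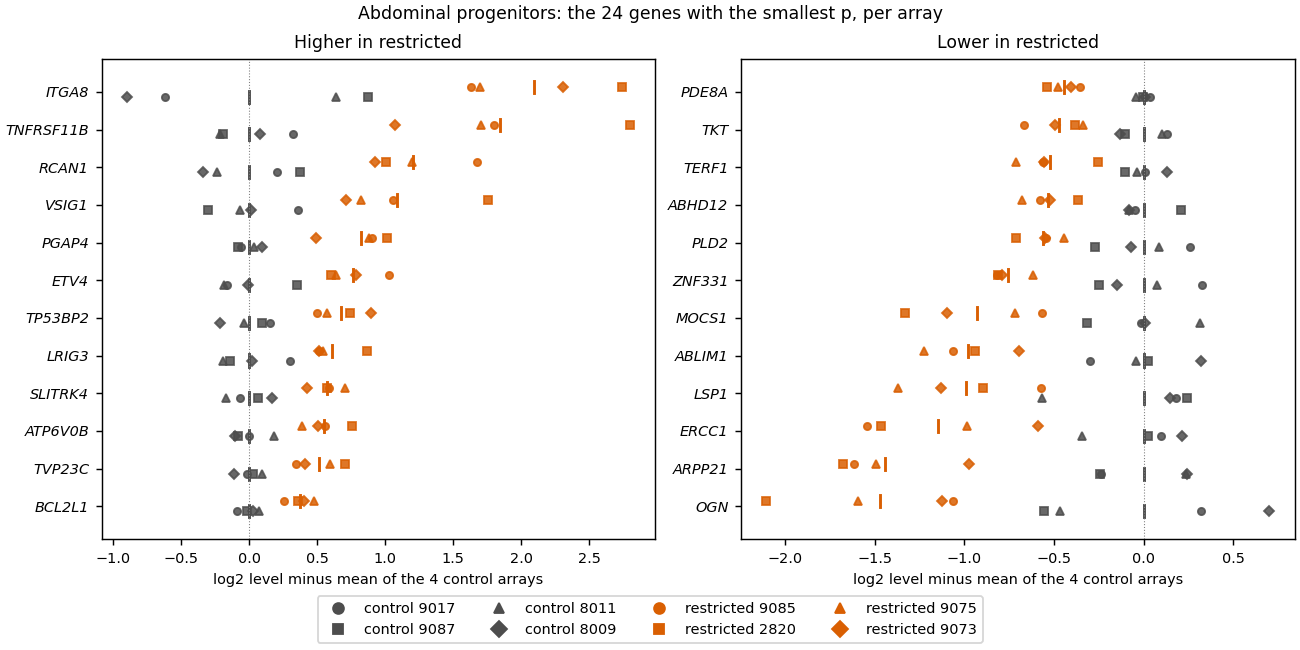
The 12 genes with the smallest p among those higher (left) and lower (right) in restricted fetuses, plotted per abdominal array as log2 level minus the mean of the 4 control arrays, with vertical bars at the group means. By the choice of genes no orange restricted array overlaps the grey control arrays, LSP1 by the narrowest gap, with mean differences from 0.38 (BCL2L1) to 2.09 (ITGA8) on the left and from -0.44 (PDE8A) to -1.47 (OGN) on the right.

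Among genes lower in restricted fetuses, second messenger and cytoskeleton genes came first. ARPP21, a phosphoprotein known from neurons as a regulator of calmodulin signalling, had the smallest p of the 24 genes plotted by array. It read 5.98, 5.98, 6.46 and 6.46 in controls and 4.61, 4.54, 4.73 and 5.24 in restricted fetuses, where 1 of 4 arrays detected it. The difference was -1.44 ± 0.19 (limma adjusted p 0.538). For a second probe, which 4 control and 0 restricted arrays detected, the difference was at least 1.34-fold. ABLIM1, which links actin filaments to signalling proteins, read 7.92, 8.25, 8.18 and 8.54 against 7.16, 7.29, 7.00 and 7.53 (-0.98 ± 0.16; limma adjusted p 0.557). Its other probes pointed the same way, at -0.86 ± 0.22 without overlap and at -0.18 ± 0.11 with overlap. LSP1, an actin-binding protein first known from leukocytes, differed by -0.99 ± 0.22 and by -1.16 ± 0.33 on its 2 probes (limma adjusted p 0.955). The diet groups overlapped on the second of these probes. PDE8A, which breaks down cyclic AMP, had control levels of 5.28 to 5.35 and restricted levels of 4.78 to 4.96 (-0.44 ± 0.08; limma adjusted p 0.557). Its other probes differed by -0.28 ± 0.11 and -0.07 ± 0.13.

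Matrix and position genes followed. OGN, or osteoglycin, a small proteoglycan of connective tissue, read 9.46, 8.58, 8.67 and 9.84 in controls and 8.08, 7.03, 7.55 and 8.01 in restricted fetuses. This was the largest difference of the 12 lower genes with the smallest p, at -1.47 ± 0.33 (limma adjusted p 0.955), and no array overlapped. IRX3, a homeobox gene that patterns limbs and trunk and is active in subcutaneous progenitors, read 12.72, 12.18, 12.53 and 12.12 against 11.80, 9.14, 11.19 and 11.27. Restricted_2820 lay far below the other restricted arrays, and the difference of -1.54 ± 0.50 (limma adjusted p 0.955) was -0.97 without it. ZNF529, a zinc finger gene, differed by -1.14 ± 0.41 (limma adjusted p 0.955), with restricted_9075 lowest at 4.52, and by -0.71 without that fetus.

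Genes of the nucleus and of metabolism made up the rest, and several of them were read by probes that disagreed. ZNF331, an imprinted zinc finger gene, read 5.50, 4.93, 5.25 and 5.03 in controls and was detected on no restricted array, and this probe was at least 1.32-fold higher in controls (limma adjusted p 0.557). A second ZNF331 probe differed by -0.02 ± 0.10. ERCC1, which cuts damaged DNA together with its partner ERCC4, read 6.49, 6.42, 6.05 and 6.61 against 4.85, 4.93, 5.40 and 5.80 (-1.15 ± 0.22; limma adjusted p 0.739). Of its 4 probes, 3 were lower and 1 was higher (0.31 ± 0.12). MOCS1, needed for the molybdenum cofactor, differed by -0.93 ± 0.19 on its leading probe and by -0.03 and 0.14 on the others. ABHD12, a lipid hydrolase, differed by -0.54 ± 0.11 on one probe and 0.10 ± 0.12 on the other. Single probes read the telomere protein gene TERF1 (-0.52 ± 0.11), the phospholipase PLD2 (-0.56 ± 0.13) and the pentose phosphate enzyme TKT (-0.47 ± 0.11), with limma adjusted p values of 0.955.

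The same genes were then set beside their diet differences in omental and femoral cells, since the series asks about depots. All depots came from the same 8 fetuses, so these values are not independent of each other. The 12 higher genes had a median difference of 0.72 in abdominal cells, where they were chosen, 0.36 in omental cells and 0.55 in femoral cells. The 12 lower genes had medians of -0.84, -0.33 and -0.61 in that order. TNFRSF11B, at 1.54 in omental and 1.98 in femoral cells, PGAP4 (0.62 and 0.62), ERCC1 (-1.29 and -1.46), OGN (-1.26 and -1.18) and TERF1 (-0.57 and -0.67) were of about the abdominal size in all depots. RCAN1 (0.13 and 0.48), ATP6V0B (0.06 and 0.02), ABLIM1 (-0.05 and -0.54) and ARPP21 (0.39 and -0.48) were smaller or of the other sign elsewhere.

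Whether the diet difference in abdominal cells differed from that in the other depots was tested on each fetus's abdominal level minus the mean of its omental and femoral levels. At an adjusted p under 0.05 limma called 0 of 16933 probes (0.0%), while 632 probes (3.73%) passed an unadjusted 0.05. For genes chosen above by their abdominal difference, that choice favours a difference here as well, so their values are a description. RCAN1 differed by 0.90 ± 0.22 and ARPP21 by -1.39 ± 0.32, both with a limma adjusted p of 0.997. For TNFRSF11B the difference between depots was 0.08 ± 0.21, and for PGAP4 it was 0.20 ± 0.12.

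The genes with the smallest p in that test had mostly small abdominal differences. They were chosen by their gap to the other depots, which favours values of the other sign there, so their values are a description. MICALL1, which helps recycle membrane inside the cell, was first at -0.62 ± 0.09 (limma adjusted p 0.557), from -0.33 in abdominal, 0.28 in omental and 0.30 in femoral cells. Its abdominal arrays overlapped, at 5.38 to 5.62 in controls and 4.89 to 5.51 in restricted fetuses. ITGA6, a laminin receptor chain, had the largest difference of these 10 genes. It read 7.25, 8.15, 8.28 and 7.97 in control and 6.40, 6.78, 7.58 and 6.61 in restricted abdominal cells (-1.07 ± 0.29), against 0.06 in omental and 0.01 in femoral cells, a difference of -1.10 ± 0.24 between depots (limma adjusted p 0.997). The heterochromatin protein gene CBX3 (-0.59 ± 0.11), the neural gene CEND1 (-0.58 ± 0.10) and the noncoding LINC02860 (-0.41 ± 0.08) completed the lower side. On the higher side stood the chemokine-scavenging receptor ACKR4 (1.09 ± 0.25), the secreted protein gene C1QTNF5 (0.65 ± 0.14), the small GTPase RASL12 (0.55 ± 0.13), the cilia gene CFAP210 (0.50 ± 0.11) and PRAME (0.46 ± 0.11), all 8 with a limma adjusted p of 0.997. For CBX3 the probes disagreed, since in abdominal cells the one named here differed by -0.36 ± 0.12 and a second, detected on all 8 arrays, by -0.02 ± 0.09. PRAME differed by 0.31 in abdominal cells on the probe named here and by 0.07 ± 0.10 on a second, which was detected on 4 of the 8 arrays.

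**Figure D3:**
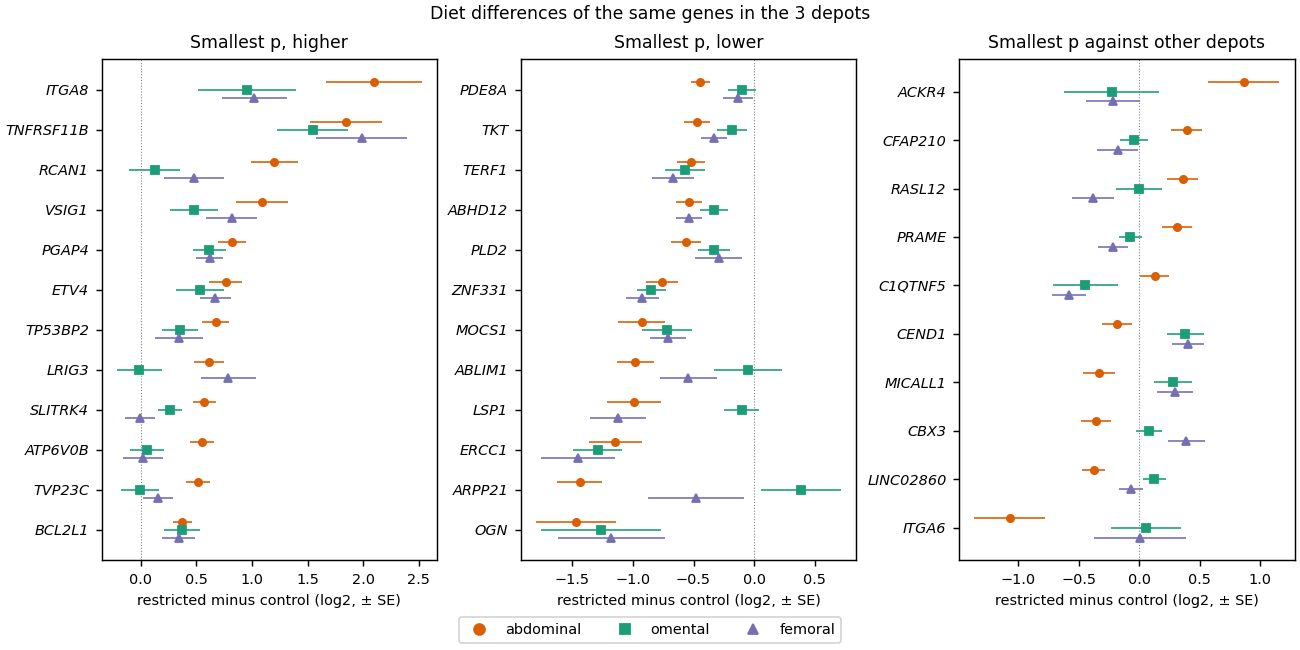
Restricted minus control difference (log2, with horizontal bars of 1 SE) in abdominal, omental and femoral cells for the 24 genes with the smallest abdominal p (left and middle) and the 10 with the smallest p in the test of abdominal cells against the other depots (right). TNFRSF11B and ERCC1 lie at similar values in all depots, RCAN1 and ARPP21 lie apart in abdominal cells, and ITGA6 is at -1.07 in abdominal cells and at 0.06 and 0.01 in the others.

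Known regulators of fat cell formation showed no common direction. A list of 14 tested regulators had 5 higher and 9 lower members and a median of -0.03, against a median of -0.01 over all 10228 genes, and 0 members had an unadjusted p under 0.05. PPARG, the central factor of fat cell formation, read 9.50, 8.60, 8.01 and 8.24 in control and 9.65, 8.60, 8.37 and 9.60 in restricted abdominal cells, so the groups overlapped (0.47 ± 0.39; limma adjusted p 0.955). The difference was 0.27 without restricted_9085 and 0.77 without control_9017. In the same fetuses PPARG differed by -0.48 in omental and -0.89 in femoral cells, and the difference between depots was 1.15 ± 0.33 (limma unadjusted p 0.00565, adjusted p 0.997). Its partner CEBPA differed by -0.63 ± 0.57, by -0.26 without control_9017, by -0.27 without restricted_9073 and by -1.11 without restricted_9085. Of 9 fat cell products, 6 were higher, with PNPLA2, which starts the breakdown of stored fat, at 0.47 ± 0.19 and the hormone gene LEP lower at -0.25 ± 0.11.

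A list named for brakes on fat cell formation and a list of Wnt genes had members on both sides. Of 9 tested members of the first 3 were higher, and at an unadjusted p under 0.05 there was 1 higher (SFRP1) and 2 lower (DKK1 and KLF2), where all genes gave 2.17% higher and 3.29% lower. SFRP1 and DKK1 bind or block the Wnt pathway, itself a brake, so their counts cannot be read as more or less braking. SFRP1, a secreted binder of Wnt proteins, read 8.43, 9.12, 9.30 and 8.66 against 10.36, 11.46, 10.72 and 8.44 (1.37 ± 0.56). Here 3 restricted arrays lay above every control and restricted_9073 lay among them. The Wnt antagonist DKK1 read 8.54, 7.69, 7.88 and 7.64 against 7.53, 7.26, 6.89 and 7.44 without overlap (-0.66 ± 0.22), and the Wnt receptor FZD2 differed by -0.59 ± 0.19. The 22 tested Wnt genes had 11 higher, 11 lower and a median of 0.01. All of these genes had a limma adjusted p of 0.955.

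Growth factor genes were next. In the insulin-like growth factor axis, 5 of 16 genes were higher, where 46.5% of all genes were, and the median was -0.10. IGFBP3, the main carrier of these hormones in blood, read 10.46, 10.90, 11.19 and 11.17 against 9.46, 11.06, 10.27 and 9.80, with restricted_2820 inside the control range (-0.78 ± 0.33; limma adjusted p 0.955). IGF2, the fetal member of this family, ranged from 4.70 to 8.63 in controls and from 4.41 to 7.07 in restricted fetuses. Its difference of -0.69 ± 0.87 was 0.15 without control_8009, the array with high MYH3 and CDH15.

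Imprinted genes use the copy of only 1 parent, and many control fetal growth. Of 16 tested, 12 were lower and the median was -0.14. Without overlap between diets stood 2 of them, both lower, where 1.92% of all genes did so as lower and 1.28% as higher. The count includes ZNF331, already named above for its small p and lack of overlap. On the second probe of ZNF331 the groups overlapped, with a difference of -0.02. Besides ZNF331, MEG3, a noncoding RNA of the maternal chromosome, did not overlap, with 10.05, 9.14, 9.60 and 9.22 in controls and 9.04, 7.77, 8.76 and 8.86 in restricted fetuses (-0.90 ± 0.30; limma adjusted p 0.955). MEG3 differed by -0.74 in omental and -0.76 in femoral cells. NNAT, a membrane protein gene of the paternal copy, differed by 0.98 ± 0.54, and ran from 0.62 without control_9017 to 1.30 without control_8009. H19, a noncoding RNA of the maternal copy, differed by -0.95 ± 0.61, and ran from -1.40 without restricted_2820 to -0.54 without control_8009.

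The calcium and TNF receptor families were looked at because RCAN1, ARPP21 and TNFRSF11B were already known to differ here, so their counts include the genes that prompted them. Of 11 tested calcium and calcineurin genes 4 were higher. CABIN1, another calcineurin inhibitor, differed by -0.47 ± 0.19 and by -0.27 without control_9017, with a sign opposite to that of RCAN1. The catalytic subunits PPP3CA and PPP3CB differed by -0.09 and -0.10. Of 10 TNF receptors and ligands 8 were higher. TNFRSF19, a receptor of stem and progenitor cells, read 7.63, 8.21, 7.43 and 7.67 against 8.06, 10.26, 8.38 and 8.92, with restricted_9085 within the control range (1.17 ± 0.43; 0.72 without restricted_2820). TNFRSF10C, a decoy receptor for TRAIL, differed by 0.29 ± 0.12, and CD40, detected on 2 restricted and 0 control arrays, was higher by at least 1.09-fold.

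The cytokine genes IL6 and CXCL8 were high on 2 of the 4 restricted arrays. IL6 read 10.96, 11.10, 10.51 and 10.59 in controls and 12.56, 13.68, 10.68 and 10.82 in restricted fetuses (1.15 ± 0.61; 0.57 without restricted_2820). CXCL8 read 8.73, 7.28, 5.88 and 6.67 against 11.21, 13.96, 6.82 and 6.59 (2.50 ± 1.56; 1.07 without restricted_2820). For both genes restricted_9085 and restricted_2820 lay above every control, while restricted_9075 and restricted_9073 lay within the control range. HSD11B1 (6.93, 9.38, 4.61 and 4.46 on restricted arrays, 4.39 to 4.97 on control arrays) and the metal-binding MT1X (8.54, 10.52, 5.58 and 4.47, against 4.77 to 6.61) were high on the same arrays. The list of 15 cytokines and NF-kB targets had 12 higher members and a median of 0.29, and without restricted_2820 it had 6 higher and a median of -0.10. At an unadjusted p under 0.05 there was 1 higher member (ICAM1) and 0 lower, against 2.17% and 3.29% of all genes. ICAM1 differed by 0.32, and by 0.24 without restricted_2820. Of the 15, 1 member had no overlap between diets, as higher, against 1.28% of all genes.

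Counts of higher interferon and hypoxia genes were smaller without restricted_2820. Of 13 interferon genes 10 were higher (median 0.26), and 6 were (median -0.02) without restricted_2820, where IFI6 stood at 10.15 and BST2 at 8.10 against 7.72 to 8.98 and 4.74 to 6.04 on the other 7 arrays. Of 25 hypoxia and glycolysis genes 21 were higher (median 0.22), where 46.5% of all genes were. The count was 17 (median 0.07) without restricted_2820. Without restricted_2820, restricted_9073 and control_8009 there were 12 of 25. None of the 25 had an unadjusted p under 0.05. The 20 genes of oxidative phosphorylation had 8 higher and a median of -0.07. In omental and femoral cells of the same fetuses, 12 and 10 of the 13 interferon genes were higher (medians 0.90 and 0.51). Of the 25 hypoxia and glycolysis genes, 21 and 22 were higher there (medians 0.28 and 0.22).

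Matrix genes were mixed. Of 19 collagen genes 15 were lower, but by a median of only -0.12, and 0 had an unadjusted p under 0.05. THBS1, a matrix protein that activates TGF-beta, read 12.90, 13.27, 13.16 and 12.68 against 13.41, 13.91, 13.49 and 13.35 without overlap (0.54 ± 0.17; limma adjusted p 0.955). TNC, a matrix protein of growing and healing tissue, differed by 1.01 ± 0.38 (0.66 without restricted_9085), and its relative in function POSTN by -0.76 ± 0.30. The collagen-linking enzyme LOX differed by -0.55 ± 0.22. Among 17 integrins and actin linkers, ITGA8, ITGA6 and ABLIM1 stood apart, and the other 14 lay between -0.26 and 0.43.

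Of 21 cell cycle genes 14 were higher with a median of 0.13, and 0 had an unadjusted p under 0.05. Of 17 amino acid stress and unfolded protein genes 5 were higher, with a median of -0.09. At an unadjusted p under 0.05 there were 2 higher (CALR and ATF3) and 2 lower (XBP1 and MTHFD2), against 2.17% and 3.29% of all genes, and the 2 higher ones did not overlap between diets, against 1.28% of all genes. CALR, a calcium-binding chaperone, read 8.67, 8.56, 8.58 and 8.64 against 8.75, 8.88, 8.89 and 8.90 without overlap (0.24 ± 0.08), while XBP1, a switch of the unfolded protein response, differed by -0.32 ± 0.12. ATF3, a transcription factor switched on by stress, read 5.17, 5.15, 5.14 and 4.92 against 5.39, 5.17, 5.40 and 5.44, where control_9017 and restricted_2820 both stood at 5.17 after rounding (0.25 ± 0.10). MTHFD2, a mitochondrial folate enzyme, differed by -0.34 ± 0.14, and by -0.21 without restricted_2820. All 4 genes had a limma adjusted p of 0.955.

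Position genes of deep and of subcutaneous fat differed in opposite directions by their medians and, apart from PITX1, mainly on 2 arrays. All 9 tested members of a visceral fat identity list of 18 were higher in restricted fetuses (median 0.53), against 46.5% of all genes. Of the 9, only 3 were detected on all 8 abdominal arrays. The 5 detected on at least 4 of the 8 arrays were all higher, with a median of 0.35. In a subcutaneous list 2 of 10 tested members were higher and 8 lower (median -0.19), where 46.5% of all genes were higher. Its lowest member was PITX1 at -1.17, the hindlimb factor that was high on control_8009. PITX1 differed by -0.068 without control_8009 and by -1.32 without restricted_9073 and restricted_2820. The mean level of the visceral list was 5.72 to 5.89 on control arrays and 5.87, 6.54, 5.96 and 7.10 on restricted arrays. Without restricted_2820 and restricted_9073 the visceral list had 6 of 9 higher and a median of 0.03, and the subcutaneous list 6 of 10 higher and a median of 0.03. FOXF1, a factor of gut and body-wall mesoderm, read 5.04, 5.22, 4.80 and 4.68 against 5.67, 6.41, 5.46 and 5.25, and HAND2 read 7.50, 7.50, 7.30 and 7.34 against 7.84, 7.72, 7.65 and 7.51. These 2 genes had no overlap, where 1.28% of all genes did so as higher. Without both fetuses FOXF1 and HAND2 still differed by 0.63 and 0.33.

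HOXC8 and HOXC9 of the subcutaneous list, and HOXC6 from outside it, were read per array. Other members of that list, such as TWIST2 (0.08), SHOX2 (0.08) and EN1 (-0.03), differed little. HOXC8 read 11.39, 11.14, 11.25 and 10.92 in controls and 10.76, 9.77, 11.25 and 9.93 in restricted fetuses (-0.75 ± 0.31), with restricted_2820 and restricted_9073 lowest. Its difference was -0.17 without them. In omental cells HOXC8 differed by 0.97 and in femoral cells by 0.05, which gave -1.26 ± 0.35 between depots (limma unadjusted p 0.0055, adjusted p 0.997). HOXC6 read 12.79, 12.23, 12.48 and 12.30 against 12.38, 11.38, 12.14 and 11.22 (-0.67 ± 0.27; -0.19 without both fetuses). HOXC9 was at 4.47 on both of those arrays, where it was not detected, and at 5.16 to 5.83 on the other 6. Over 19 tested HOXB, HOXC and HOXD genes 8 were higher and the median was -0.03.

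Markers of other cell types were read beside these lists. Of 13 mesothelial markers, which line the body cavity, 7 passed the filter and 6 were higher in restricted fetuses. Their mean level ran from 6.15 to 6.32 on control and from 6.33 to 6.87 on restricted arrays. KRT19 read 4.53, 5.04, 5.10 and 5.67 against 4.34, 8.22, 6.12 and 7.05, again with restricted_2820 and restricted_9073 highest, and MSLN, KRT8 and KRT18 did not pass the filter. The part of mesothelial or muscle cells in the differences of the position genes was not tested. Of 14 macrophage and blood markers 3 passed, PTPRC and CSF1R did not, and CD14 read 7.72, 9.87, 6.23 and 7.02 on restricted arrays against 6.32 to 6.79 on control arrays. Of 13 endothelial markers 8 passed at mean levels of 5.05 to 5.23 and 5.01 to 5.19, and CDH5 did not pass. The part of blood cells in the inflammatory genes was not tested.

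**Figure D4:**
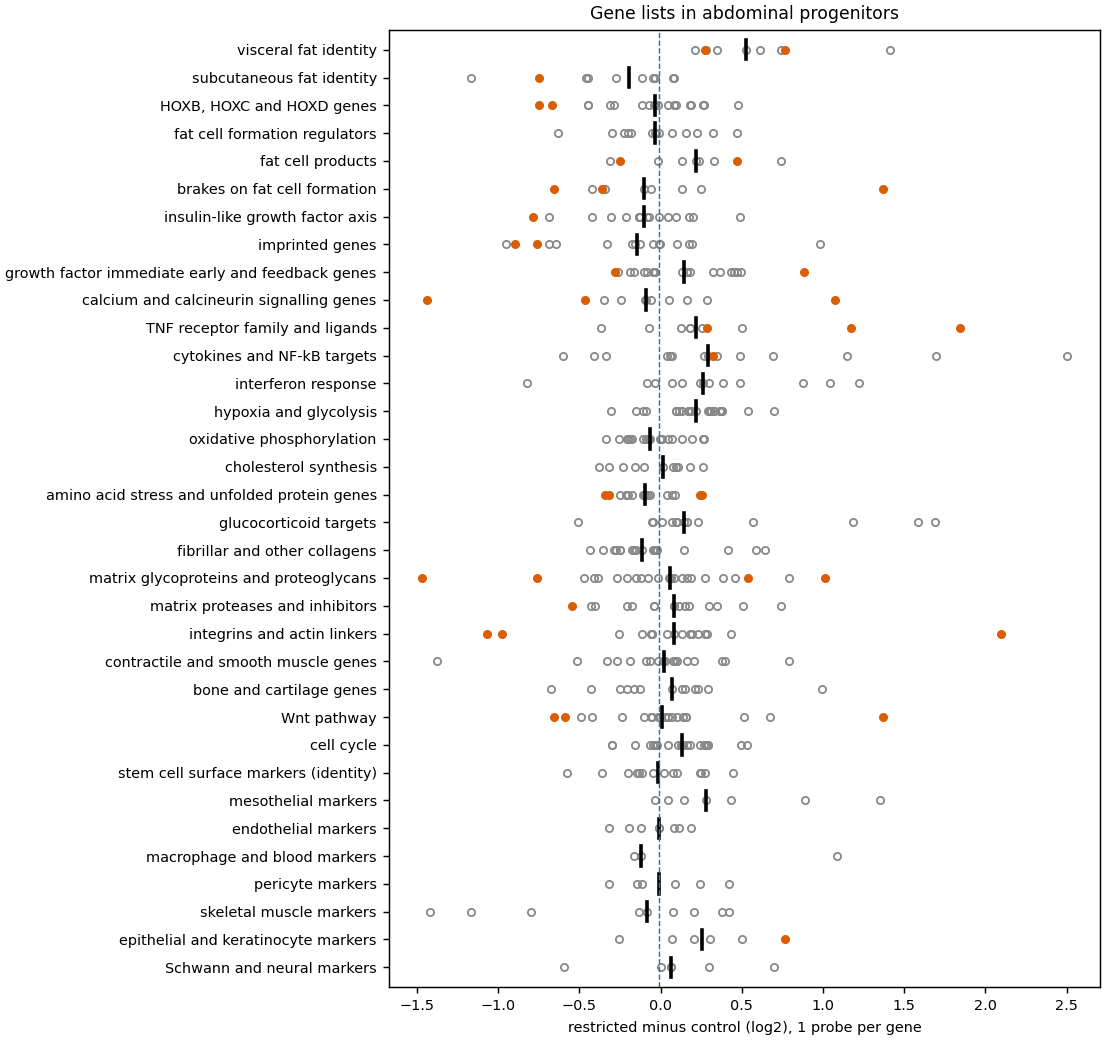
Restricted minus control difference (log2) of each tested gene in 34 gene lists, 1 probe per gene, with filled orange points for an unadjusted p under 0.05, black bars at list medians and a dashed line at the median of all 10228 genes (-0.01). The visceral identity list lies wholly above 0 (median 0.53), the collagens (median -0.12) mostly lie below it, and the highest value, 2.50, is in the cytokines.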

How the data were processed

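The authors deposited a table of average intensity for every probe and array, with a detection p-value beside each, per the file headers. The values show that background had been subtracted and that arrays had not been normalised against each other: 32.0% to 36.1% of an abdominal array's values lay below 0. The deposited series matrix also holds intensity values, quantile-normalised to judge by its column medians of 2.90 to 2.91. For scanner software, slides and scan times, nothing is given in the sources used here. Columns were assigned to samples through fetus number and depot letter, and for each abdominal array the matrix and scanner columns ranked the probes alike.

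From the deposited intensity values, log2 levels were made with neqc (background model, quantile normalisation over the 24 arrays, offset 16) in limma 3.58.1 (R 4.3.3, statmod 1.5.0). Counts, lists and plots were made in Python 3.11.15 using pandas 2.3.3, numpy 2.4.6 and matplotlib 3.10.9. The detection filter kept probes with a detection p-value under 0.05 on at least 4 of 24 arrays. This left 16933 probes, of which 12863 carried 1 gene symbol (10228 genes) in GEO's platform annotation, whose symbols may be outdated. Two-sided tests of restricted minus control over the 8 abdominal arrays came from lmFit and eBayes, with Benjamini-Hochberg adjustment over every tested probe. The same test was run on each fetus's abdominal level minus the mean of its other depots. The code was tested on simulated data. Where no array of a group detected a probe, its fold is a lower bound ("at least"): the mean of the brighter group over the dimmer group's mean, in which each array counts with its own value or its weakest detected signal, whichever is higher.

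Genes were named by rule: the 12 smallest p values in each direction without overlap between diets, the 5 largest differences in each direction with an unadjusted p under 0.05 and no overlap, the 5 smallest p values in each direction against the other depots, and members of 35 gene lists with small p or no overlap. Other list members and genes that set single arrays apart were chosen after their values were seen. Lists used the probe with the highest mean per gene, and 451 of 656 listed genes were tested. HOXA genes are not described here. The groups, genes and lists were chosen with earlier results of these data known. P-values measure the spread between fetuses together with that of culture. The number of arrays limits precision, and how well human probes match baboon transcripts was not examined.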

Additional observations from a re-analysis of the deposited data

Results flagged for a closer look

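Within a diet group of 4 arrays, 1 array lay far from the other 3 in 17 of 228 groups checked. Chance flags about 1 in 20 groups, but some of these genes were named because they set 1 array apart, so the 2 rates cannot be compared. Control_8009 was far above the other controls for the muscle genes MYH3 (10.06, others 4.34 to 4.44), CDH15 (8.78, others 4.43 to 4.70) and MYBPH (8.10, others 4.55 to 4.74) and for the cilia gene CFAP210 (5.25, others 4.82 to 4.88), and below them for the stress factor ATF3 (4.92, others 5.14 to 5.17). Restricted_9073 was far above the other restricted arrays for NKX3-2 (9.55, others 4.42 to 4.88), ISL1 (6.42, others 4.40 to 4.43), the retinoic acid enzyme gene ALDH1A1 (8.27, others 4.99 to 5.19) and the vesicle fusion gene SNAP25 (6.80, others 4.58 to 4.79). Restricted_2820 was high for LRIG3 (6.51, others 6.15 to 6.18) and RASL12 (5.30, others 4.79 to 4.85) and low for ATF3 (5.17, others 5.39 to 5.44). Restricted_9075 was high for ZNF331 (4.56, others 4.36 to 4.39), where no restricted array detected the probe. Restricted_9085 was low for CALR (8.75, others 8.88 to 8.90). Among controls, control_8011 was low for LSP1 (5.56, others 6.27 to 6.36), and control_9087 was high for ABHD12 (6.07, others 5.79 to 5.82) and ACKR4 (6.52, others 5.51 to 5.66).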

How the results depend on the processing

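Over 23 alternatives, limma called at most 3 probes in abdominal cells. Female fetuses alone gave 3 calls (C19orf33, ITGB1BP1 and a probe with no symbol), values without background correction and those of the series matrix gave 1 each (PDE8A in both, adjusted p 0.00379 and 0.00363, with all 4 restricted matrix values below the floor of 16), leaving out restricted_9073 and restricted_2820 together gave 1 (NTRK3, 0.0155), and leaving out 1 fetus gave 0 to 1 (ITGB1BP1 without restricted_9085, 0.0298). The other alternatives gave 0. A joint fit of all 24 arrays with fetus as a replicate block across depots gave 0 calls (smallest adjusted p 0.103), and without the block 0 (0.0874). The diet groups share no fetus, so the block pairs depots and not diets, and it changed no call. Against the other depots, values without background correction and those of the series matrix called 1 probe each (MICALL1, 0.038 and 0.0375), leaving out control_8009, restricted_2820 and restricted_9073 together, an alternative chosen after seeing the data, called 1 (TPR, 0.0102), and leaving out 1 fetus called 0 to 0. The cause of these calls was not tested. Of 2569 values of 114 named genes, 2549 kept their direction and stayed uncalled, 2 became calls (PDE8A, above) and 18 changed direction, in 9 genes, none of them among the 24 with the smallest p in abdominal cells. Without restricted_9073 and restricted_2820, IGF1 differed by -0.033, HOXC9 by 0.063, SLN by -1.60 and ALDH1A1 by -0.73. Without control_8009 as well, IGF1 differed by -0.015, ENO2 by -0.023, ISL1 by -0.0045, MYH3 by 0.052, CHRNA1 by 0.20, SLN by -1.78 and ALDH1A1 by -0.73. ALDH1A1 differed by -0.078 on values without background correction and by -0.078 on those of the series matrix. When 1 fetus was left out, IGF2 ran from -1.23 to 0.15, CHRNA1 from -1.20 to 0.064, SLN from -0.72 to 1.57 and ALDH1A1 from -0.69 to 0.41. Of 838 list medians, 29 moved by more than the spread of the list's level between arrays. Probes near background, detected on few arrays, limit the folds that can be read.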
